A study of Mus musculus with 12 samples.

Results

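The 7 genes described here encode the protein C receptor and proteins linked to it in coagulation and in the plasminogen system: Procr, Thbd, F3, F2r, Plaur, Plau and Serpinb2. They were taken as every probe set whose annotation gave 1 of these symbols and no other, which found 10 probe sets for 7 genes, of 12422 probe sets for 8251 genes on the array. The genes were chosen with their values on these arrays already known, so those values are given as a description, without p-values. RNA of mouse splenic dendritic cells was measured on 12 oligonucleotide arrays, in 6 groups of 2 arrays each. Dendritic cells with high CD11c were sorted from spleen into CD4+ cells, CD8+ cells and cells with neither marker (double negative, DN), and each subset was processed either at once (fresh) or after 2 h at 37 °C in tissue culture medium (cultured). No treatment other than culture and no genetic alteration is named for any group, and mouse strain and age are not given in the labels. Values are intensities scaled by the authors, so that probe sets can be compared between arrays but not with each other. Differences are given on a generalised log2 scale, which stays defined below 0. Intensities under a floor of 91.37 were treated as not above background.

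Procr was the gene of the set with a high signal, and its intensity was 14.4-fold higher after culture on average over the subsets (log2 difference 3.85 ± 0.14, SE, n = 2 arrays in each of 6 groups). Cultured CD8+ cells had the highest Procr level, 7427.1 ± 17.18 (SD, n = 2). Plaur was also higher on every cultured array than on the fresh arrays of the same subset, and Serpinb2 was lower. F2r was dim, and its probe sets differed in level and in the size of their differences. Thbd, F3 and Plau were not above background on any array. In sorted bulk samples such as these, fewer expressing cells and less RNA per cell cannot be told apart.

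Protein C is a plasma zymogen that thrombin converts to an anticoagulant protease. The conversion runs on the cell surface, where thrombomodulin (Thbd) holds thrombin and the endothelial protein C receptor (Procr) holds protein C. Tissue factor (F3) is the cell-bound cofactor that starts coagulation, and the thrombin receptor PAR1 (F2r) is cut open by thrombin and, on endothelium, by activated protein C bound to its receptor. Urokinase (Plau) makes plasmin from plasminogen, the urokinase receptor (Plaur) holds it at the cell surface, and plasminogen activator inhibitor 2 (Serpinb2) inhibits it. In human blood, thrombomodulin under the name CD141 marks a dendritic cell subset, and in the mouse the protein C receptor has been described on CD8+ dendritic cells of the spleen.

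Promoter windows were available for 5 of the 7 genes, from RefSeq on build GRCm38.p6, from 250 bases before the annotated start to 50 after it. They are shown for the 3 genes whose levels moved most with culture. The stretches are of the forward strand and hold or lack the exact letters TGACTCA, an AP-1 motif. AP-1 motifs are sites of the Fos and Jun proteins, and the RNA levels of Fos and Jun are given further on. Variants of these letters were not searched, so that a stretch without them may hold another form of the site. Capitals mark that motif. The Procr stretch is chr2:155750967-155751124, bases -250 to -93 from the start, the Plaur stretch is chr7:24462323-24462482, bases -160 to -1, and the Serpinb2 stretch is chr1:107511263-107511422, bases -160 to -1.
Procr: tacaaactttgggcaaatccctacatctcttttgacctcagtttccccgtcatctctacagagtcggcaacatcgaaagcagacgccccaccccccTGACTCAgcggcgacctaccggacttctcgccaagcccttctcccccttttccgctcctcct
Plaur: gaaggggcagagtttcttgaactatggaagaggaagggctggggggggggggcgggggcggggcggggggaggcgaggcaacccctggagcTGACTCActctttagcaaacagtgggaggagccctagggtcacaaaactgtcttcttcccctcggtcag
Serpinb2: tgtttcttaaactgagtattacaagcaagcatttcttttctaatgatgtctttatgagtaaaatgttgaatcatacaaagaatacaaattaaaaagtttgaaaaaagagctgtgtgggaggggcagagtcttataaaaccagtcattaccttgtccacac

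Searched on both strands, TGACTCA lay in the windows of 4 of these 5 genes, with its first base at -154 in Procr, -69 in Plaur, -135 in F3 and -204 in F2r, and in neither of the annotated windows of Serpinb2. Of all 32851 mouse promoter windows of this length, 5.2% held it. The GC box GGGCGG, held by 35.7% of windows, was present 3 times in Plaur, 3 times in F3 and 1 time in F2r. The letters TATAAA, held by 13.6% of windows, began at -29 in the first Serpinb2 window and at 44 in F3. The NF-kB motif was found in 8.46% of all windows and in 0 of those of the 5 genes. The motifs were chosen after these sequences had been read, and a match is a description of the letters only.

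The labelled cells were checked first. Itgax, which encodes CD11c, Flt3, H2-Ab1 and Cd74 were above the floor on all 12 arrays. Cd8a was 1210.4 and 1675.2 on the fresh and 890.9 and 679.4 on the cultured CD8+ arrays, against at most 36.1 on the other arrays. Cd4 was 617.3 and 612.8 on the fresh CD4+ arrays, against 58.9 to 92.0 on the other fresh arrays. It set cultured CD4+ cells less apart, at 270.9 and 112.2, against 59.7 and 105.6 in cultured CD8+ and 90.5 and -27.6 in cultured DN cells. Fresh CD8+ replicate 1 carries conflicting labels, its title and source saying CD8+ and its description CD4 positive. With Cd8a at 1210.4 and Cd4 at 92.0, this array was used as CD8+. The Gapdh 3′ to 5′ ratio, a sign of RNA quality, was 2.55 on fresh CD8+ replicate 1, 1.97 on cultured CD4+ replicate 1 and 1.34 on cultured DN replicate 1, and 0.890 to 1.04 on the other 9 arrays. Array noise (root mean square over an array's negative values) was 107.9 on cultured CD4+ replicate 1 and 26.2 to 82.5 on the others.

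Procr encodes the protein C receptor and was above the floor on all 12 arrays. In fresh cells its intensity was 216.9 and 185.1 in the DN subset, 291.9 and 310.8 in CD4+ cells and 371.6 and 423.6 in CD8+ cells. The arrays of the 3 fresh subsets did not overlap, with DN lowest and CD8+ highest. After culture it was 3362.5 and 2548.3 in DN cells, 3361.3 and 3403.4 in CD4+ cells and 7415.0 and 7439.3 in CD8+ cells. Every cultured array lay above every fresh array. The order of the levels was therefore fresh DN, fresh CD4+, fresh CD8+, then cultured DN and CD4+, whose arrays overlapped, and cultured CD8+ above all.

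Among fresh cells, Procr was higher in CD8+ cells than in CD4+ cells by 0.39 ± 0.24 and than in DN cells by 0.97 ± 0.24 on the log2 scale (± SE of the fit here and below). DN cells lay below CD4+ cells, with a difference of -0.58 ± 0.24. Among cultured cells, the CD8+ subset was higher than the CD4+ subset by 1.13 ± 0.24 and than the DN subset by 1.34 ± 0.24, while DN and CD4+ cells differed by -0.21 ± 0.24. The difference with culture was 3.48 ± 0.24 in CD4+ cells (11.2-fold), 4.22 ± 0.24 in CD8+ cells (18.7-fold) and 3.85 ± 0.24 in DN cells (14.4-fold). The difference in CD8+ cells exceeded that in CD4+ cells by 0.74 ± 0.34 and that in DN cells by 0.37 ± 0.34. Ranked from the most increased of the 6159 probe sets tested, Procr stood at 43 in CD4+ cells, 13 in CD8+ cells and 17 in DN cells. In each subset the difference kept its sign in all 20 alternative settings tried, with a mean over subsets of 3.70 to 3.92.

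**Figure D1:**
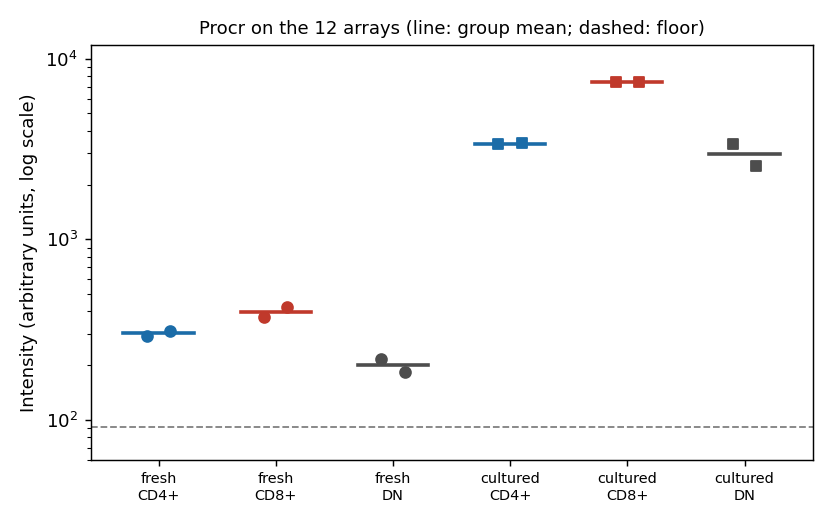
Procr intensity (log axis) on each of the 12 arrays, grouped by subset and by fresh or cultured state, with 1 point per array. All 6 cultured arrays lie between 2548.3 and 7439.3, above the 6 fresh arrays at 185.1 to 423.6, and the cultured CD8+ pair lies highest.

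Plaur encodes the urokinase receptor. Its fresh intensities were 96.3 and 64.2 in CD4+ cells, -5.3 and 33.1 in CD8+ cells and 98.1 and 83.3 in DN cells, so that most fresh arrays were under the floor. Cultured arrays read 483.8 and 188.7 in CD4+ cells, 305.1 and 160.9 in CD8+ cells and 244.2 and 150.9 in DN cells. All 6 cultured arrays lay above the 6 fresh arrays, and in each subset replicate 1 was the higher of the cultured pair. The mean log2 difference with culture was 1.92 ± 0.32, with 1.84 ± 0.56 in CD4+ cells and 1.02 ± 0.56 in DN cells. In CD8+ cells, where both fresh arrays were under the floor, Plaur was at least 2.32-fold higher after culture. Such bounds set the bright group's mean against, for each dim array, the higher of the floor and its own value.

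One array had much weight in the CD4+ value of Plaur. Without cultured CD4+ replicate 1, the array with the highest noise, the log2 difference with culture in CD4+ cells was 1.17, and without cultured CD4+ replicate 2 it was 2.51. With every value below the floor set to the floor, the mean over the subsets was 1.33. Fresh CD8+ cells read lower than fresh CD4+ and DN cells, with log2 differences of -1.50 ± 0.56 and -1.67 ± 0.56, but 4 of the 6 fresh values were under the floor, and with values set to the floor the differences were -0.04 and -0.05. Among cultured subsets the arrays overlapped.

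Serpinb2 encodes plasminogen activator inhibitor 2, and its probe set is of a kind whose probes can match more than 1 transcript. Fresh intensities were 272.4 and 295.1 in CD8+ cells, 125.8 and 149.6 in CD4+ cells and 71.6 and 67.9 in DN cells. The fresh subsets did not overlap, with CD8+ cells highest and DN cells under the floor. After culture it read 29.1 and 14.1 in CD4+ cells, 13.3 and 15.7 in CD8+ cells and 23.1 and -9.8 in DN cells. No cultured array was above the floor, and all lay below all fresh arrays. Serpinb2 was at least 2.95-fold lower after culture in CD8+ cells and at least 1.46-fold lower in CD4+ cells, while for DN cells, under the floor in both states, no fold is given. The mean log2 difference was -2.24 ± 0.27, and its size depends on the scale for dim values, since it was -0.74 with values set to the floor.

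In fresh cells, Serpinb2 was higher in CD8+ than in CD4+ cells by 1.02 ± 0.48 (log2). It was at least 2.95-fold higher in CD8+ than in DN cells, and at least 1.46-fold lower in DN than in CD4+ cells. The probe set passed the filter on low values only through the fresh arrays on which it was high.

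F2r encodes PAR1 and had 3 probe sets. On the brightest the cultured pairs were 268.4 and 50.2 in CD4+ cells, 145.1 and 87.4 in CD8+ cells and 106.4 and 142.3 in DN cells, against fresh pairs of 81.1 and 69.2, 138.3 and 69.2, and 108.7 and 69.7. The states overlapped in every subset, and the mean log2 difference with culture was 0.42 ± 0.37. In CD4+ cells that difference was 0.63, and it was -0.46 without cultured CD4+ replicate 1 and 1.73 without cultured CD4+ replicate 2. On the second, fresh arrays read 5.3 to 50.0 and cultured arrays 64.4 to 126.3, so that all cultured arrays were above all fresh ones. Its mean log2 difference was 1.33 ± 0.31, but 2 of the 12 arrays were above the floor, and with values set to the floor the difference was 0.10. The third read -15.2 to 30.7 and was above the floor on 0 arrays. Both tested probe sets had positive differences with culture in each subset, 0.63, 0.18 and 0.45 on the brighter and 1.35, 1.09 and 1.57 on the second in CD4+, CD8+ and DN cells, so that they shared the sign and differed in size and level.

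The other members were not above background on any array. Tissue factor (F3) read -8.3 to 32.0. Thrombomodulin (Thbd) read -11.9 to 21.2 on 1 probe set and -71.1 to 5.8 on the other, and urokinase (Plau) read 12.9 to 75.1. For these genes no fold is given, and whether their transcripts were absent or their probes were insensitive was not tested.

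**Figure D2:**
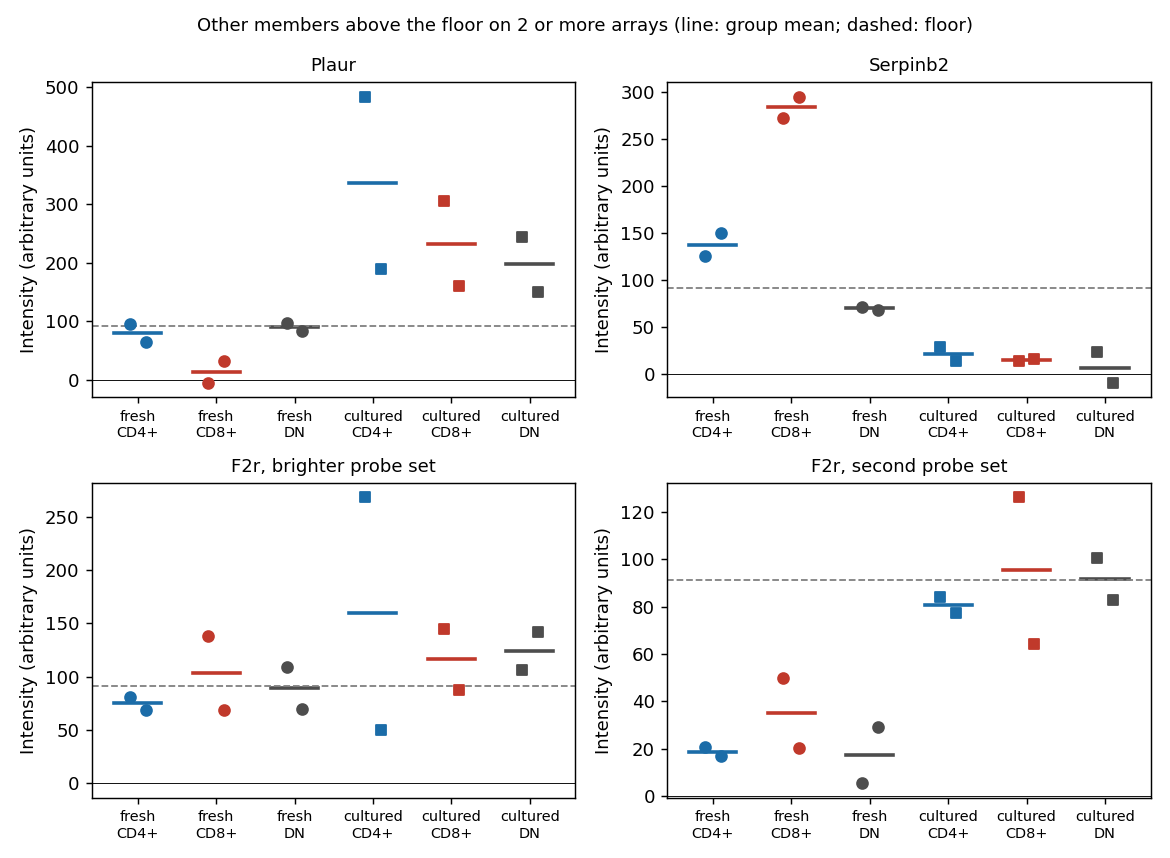
Intensity (linear axes, arbitrary units) of Plaur, Serpinb2 and the 2 tested F2r probe sets on the 12 arrays, with 1 point per array, a line for the group mean and a dashed line at the floor of 91.37. Serpinb2 is above the floor on fresh CD4+ and CD8+ arrays alone, the 6 cultured Plaur arrays at 150.9 to 483.8 lie above the 6 fresh ones, and the brighter F2r probe set overlaps between states.

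Of the 10 member probe sets, 5 passed the filter (above the floor on at least 2 arrays): those of Procr, Plaur and Serpinb2 and 2 of F2r. Serpinb2 passed only through fresh arrays, and the second F2r probe set only through 2 cultured arrays (126.3 and 100.6). Since the members were chosen with these values known, their calls below are a description and not a test. Across the 3 subsets, 3 of these 5 were called higher and 1 lower after culture (adjusted p under 0.05), where limma called 39.3% of all tested probe sets, 17.0% higher and 22.3% lower. In CD4+ cells 2 were called higher and 1 lower, against 7.53% and 10.9% of all (18.4% together). In CD8+ cells 2 were called higher and 1 lower, against 4.01% and 4.12% (8.13% together), and in DN cells 1 was called higher and 0 lower, against 4.21% and 5.7% (9.9% together). Between fresh subsets 0 of 5 were called, where 1.98% of all were called for CD8+ against CD4+, 1.43% for CD8+ against DN and 0.0% for DN against CD4+. Between cultured subsets Procr was called higher in CD8+ than in CD4+ cells, where 1.41% of all were called higher and 2.29% in either direction, and than in DN cells, where 0.649% were called higher and 1.3% in either direction. Between cultured DN and CD4+ cells 0 of 5 and 0.0% of all were called. For the DN against CD4+ comparisons, in which limma called 0 probe sets, 81 in fresh and 235 in cultured cells had an unadjusted p under 0.05.

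Arrays that did not overlap were common among all probe sets. In each subset 3 member probe sets (of Procr, Plaur and the second of F2r) were higher and 1 (Serpinb2) was lower on both cultured arrays than on both fresh ones. The shares of all tested probe sets were 28.8% and 34.0% in CD4+ cells, 22.7% and 29.4% in CD8+ cells, and 31.7% in either direction in DN cells. Over all 6 cultured against all 6 fresh arrays the same 3 were higher and 1 was lower, against 7.68% and 10.1%. In fresh CD8+ cells, Procr and Serpinb2 were higher and Plaur lower than in CD4+ cells without overlap (18.5% and 20.6% of all) and than in DN cells (16.9% and 18.5%). Procr and Serpinb2 were lower in fresh DN than in CD4+ cells (17.7%). In cultured CD8+ cells Procr was higher without overlap than in CD4+ cells (19.8%) and in DN cells (18.6%). Since members were chosen with these values known, nothing is read from the counts. The members' median log2 difference across the subsets was 1.33, and that of all tested probe sets was -0.02. With the experiment number as a block, the number of all called probe sets was 192 in place of 122 for fresh CD8+ against CD4+, 129 in place of 80 for cultured CD8+ against DN, 1786 in place of 1133 for culture of CD4+ cells and 1039 in place of 610 for culture of DN cells.

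**Figure D3:**
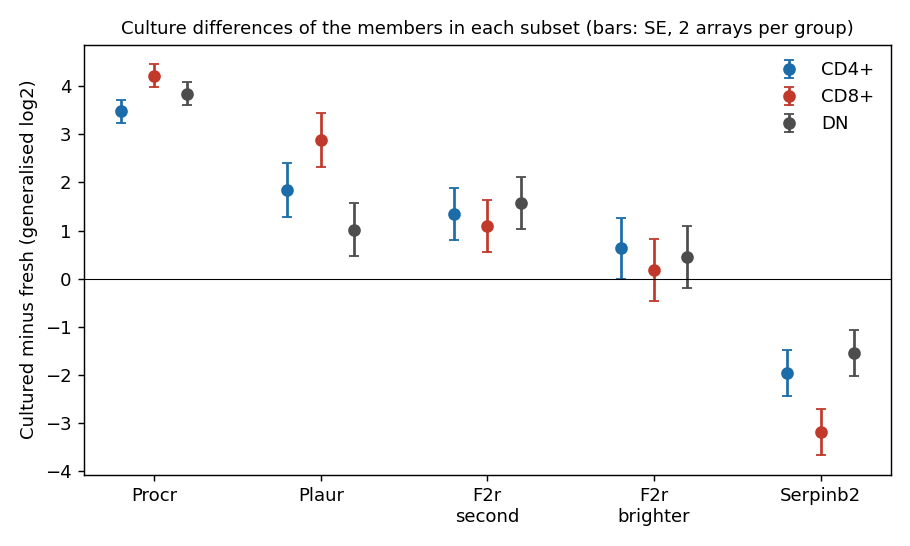
Log2 difference of cultured minus fresh intensity for the 5 member probe sets tested, by subset, with bars for the standard error of the limma fit. Procr lies at 3.48 to 4.22 in the 3 subsets and Serpinb2 lies below 0 in all of them.

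The wider pathway was described from 5 lists of other genes: coagulation factors, coagulation inhibitors and protein C partners, thrombin and protease receptors, the plasminogen system, and transcription factors known to act on such genes. They held 61 genes, of which 50 were on the array, 22 were under the floor on all arrays and 23 were tested. For the mean over the subsets, limma with Benjamini-Hochberg adjustment called 6 of the 23 higher and 9 lower after culture. Of all tested probe sets it called 17.0% higher and 22.3% lower (39.3% together). The lists were also chosen with earlier results of these data known, so their calls and p-values, here and below, are a description and not a test. The median log2 difference of the 23 was 0.12, against -0.02 for all. By subset, 2 were called higher and 8 lower in CD4+ cells, where 7.53% and 10.9% of all tested probe sets were. These 8 include Vwf, which was under the floor in CD4+ cells in both states, and Mmp9, Itgam and Klf2, under it there after culture. In CD8+ cells 1 was called higher and 5 lower, against 4.01% and 4.12%, and in DN cells 3 and 6, against 4.21% and 5.7%.

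Of 16 coagulation factors, 14 were on the array and 2 were tested. Vwf, the von Willebrand factor of endothelium and platelets, had a mean log2 difference of -1.62 ± 0.42 over the subsets (adjusted p 0.0109 by limma). CD4+ and DN cells were under the floor in both states, and with values set to the floor the difference was -0.30 and the call was lost (p 0.102). Its means were 77.6 in fresh CD4+, 211.3 in fresh CD8+ and 38.2 in fresh DN cells and -22.0, 101.8 and -8.6 after culture. F7, the partner of tissue factor, did not pass (p 0.836), with means of 224.9, 330.7 and 132.6 in fresh and 409.6, 259.2 and 156.5 in cultured CD4+, CD8+ and DN cells.

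Of 12 coagulation inhibitors and protein C partners, 10 were on the array, 3 were tested and 1 rose. Anxa5, which encodes annexin A5, a protein that covers the phosphatidylserine on which clotting enzymes assemble, had means of 1343.8, 1294.0 and 1594.8 in fresh CD4+, CD8+ and DN cells and 1868.8, 3191.4 and 2120.6 in cultured ones. All cultured arrays were above all fresh arrays, as they were for 7.68% of all tested probe sets. The mean log2 difference of Anxa5 was 0.73 ± 0.13 (limma, adjusted p 0.00141).

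The list named thrombin and protease receptors held 5 further genes, of which 3 were on the array and 2, Mas1 and F2rl2, were tested and called higher. Mas1 is a receptor of an angiotensin peptide and neither a thrombin nor a protease receptor, so that F2rl2 was the 1 tested gene of that class. Mas1 read 28.0 to 101.4 on fresh and 146.1 to 328.1 on cultured arrays, which did not overlap (1.74 ± 0.31, limma adjusted p 0.00138). F2rl2, the thrombin receptor PAR3, lies 2 genes away from F2r and had means of 50.1, 110.1 and 63.45 in fresh and 208.9, 145.7 and 143.8 in cultured CD4+, CD8+ and DN cells. Its log2 difference was 1.13 ± 0.33 (limma adjusted p 0.0216). That call was lost with values set to the floor (p 0.066) and without fresh CD4+ replicate 1 (0.0532), fresh DN replicate 2 (0.0667), cultured CD8+ replicate 1 (0.064) or cultured DN replicate 1 (0.0608).

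The plasminogen list had 15 genes, 11 of them on the array and 8 tested, of which 2 rose and 3 fell. Anxa2, a cell-surface docking protein for plasminogen and its activator, rose by 1.98 ± 0.31 (limma adjusted p 0.000629), from means of 1192.7, 665.2 and 943.2 to 4233.2, 2271.2 and 5809.4 in CD4+, CD8+ and DN cells. The cultured pairs were wide, 1089.1 and 3453.3 in CD8+ and 3580.6 and 8038.1 in DN cells. The lowest cultured array thus lay below the highest fresh array, at 1369.0. In CD8+ cells the difference was not called (1.59 ± 0.53, limma adjusted p 0.0976) and was 0.76 to 2.42 without 1 array each. Plgrkt, another plasminogen receptor, had 0.48 ± 0.17 (limma adjusted p 0.0398). Itgb2, a chain of the integrin Mac-1 that also binds urokinase receptor, had -0.55 ± 0.17 (p 0.0267). Itgam, its other chain, was above the floor on the fresh CD4+ arrays alone (120.5 and 129.1) and passed the filter through them, so that its called mean difference of -1.26 (p 0.0448) rests mainly on values under the floor and was -0.15 with values set to the floor. These 3 calls did not hold in several alternatives. Plgrkt lost its call without any 1 array other than fresh CD8+ replicate 1 and cultured CD4+ replicate 1, and its p reached 0.103. Itgb2 lost its call without the 3 arrays of high Gapdh ratio, without either fresh CD4+ array and without replicate 1 of fresh DN, cultured CD4+, cultured CD8+ or cultured DN, with p up to 0.124, and Itgam lost its call in 12 of 17 alternatives, among them any 1 left-out array of fresh CD8+, cultured CD8+ or cultured DN cells, fresh DN replicate 1 and cultured CD4+ replicate 1, with p up to 0.177.

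Mmp9, a matrix protease of the same list, had fresh means of 355.2 ± 12.59 in CD4+ and 285.9 ± 81.25 in DN cells (SD, n = 2) but -28.6 ± 13.72 in CD8+ cells. After culture it was under the floor in all 3 subsets, and its mean difference of -2.92 was -1.19 with values set to the floor. It passed the filter only through the fresh CD4+ and DN arrays, on which it was high. Fresh CD8+ cells were at least 3.68-fold lower than CD4+ cells (limma adjusted p 0.00298) and at least 2.91-fold lower than DN cells (p 0.0063). Without 1 of the fresh arrays compared, these calls were lost, with p 0.0951 and 0.0994 without fresh CD4+ replicate 1 or 2, and p 0.0918 and 0.208 without fresh DN replicate 1 or 2. Mmp9 was at least 3.68-fold lower after culture in CD4+ cells (p 0.00137) and at least 2.91-fold lower in DN cells (p 0.00334, and 0.104 without fresh DN replicate 2). Plat, the tissue plasminogen activator, did not pass (p 0.0588), with means of 155.2, 137.8 and 177.9 in fresh and 320.3, 309.1 and 461.8 in cultured CD4+, CD8+ and DN cells.

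Of 13 transcription factors, 12 were on the array, 8 were tested, and 5 fell and 1 rose. Of all tested probe sets 22.3% were called lower and 17.0% higher. Klf2, which in endothelium raises Thbd, had fresh means of 543.9, 1556.8 and 899.4 in CD4+, CD8+ and DN cells and was under the floor in all cultured groups, so that it was at least 5.45-fold, 15.8-fold and 8.59-fold lower (across the subsets, limma adjusted p 4.25e-05). It passed the filter only through the fresh arrays, on which it was high. Klf4, of the same family, fell by 2.01 on the log2 scale (SE 0.20, p 3.1e-05), from 863.1, 785.0 and 1425.2 to 391.5, 92.05 and 398.1. In cultured CD8+ cells it was lower than in cultured CD4+ cells (log2 difference -2.05, p 0.0133, and 0.131 without cultured CD8+ replicate 1) and than in cultured DN cells (-2.04, p 0.0178, and 0.186, 0.0535 and 0.133 without cultured CD8+ replicate 1 or 2 or cultured DN replicate 2). The AP-1 gene Fos fell by 1.48 (SE 0.15, p 4.69e-05), from fresh arrays at 3406.9 to 5874.4 to cultured ones at 1259.5 to 1925.4. Its partner Jun fell by 2.57 (SE 0.27, p 4.69e-05), and Egr1, an early-response factor, fell by 2.48 (SE 0.35, p 0.000319). Junb, another AP-1 gene, was above the floor on all 12 arrays and was not called (-0.41, limma adjusted p 0.298). Its means were 1774.1, 1196.2 and 2037.8 in fresh and 1438.8, 1360.8 and 1219.4 in cultured CD4+, CD8+ and DN cells. Rela, the p65 subunit of NF-kB, rose by 0.72 (p 0.00189) and was named after its value was seen. All cultured arrays lay below all fresh arrays for Klf2, Klf4, Fos, Jun and Egr1, as they did for 10.1% of all tested probe sets.

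**Figure D4:**
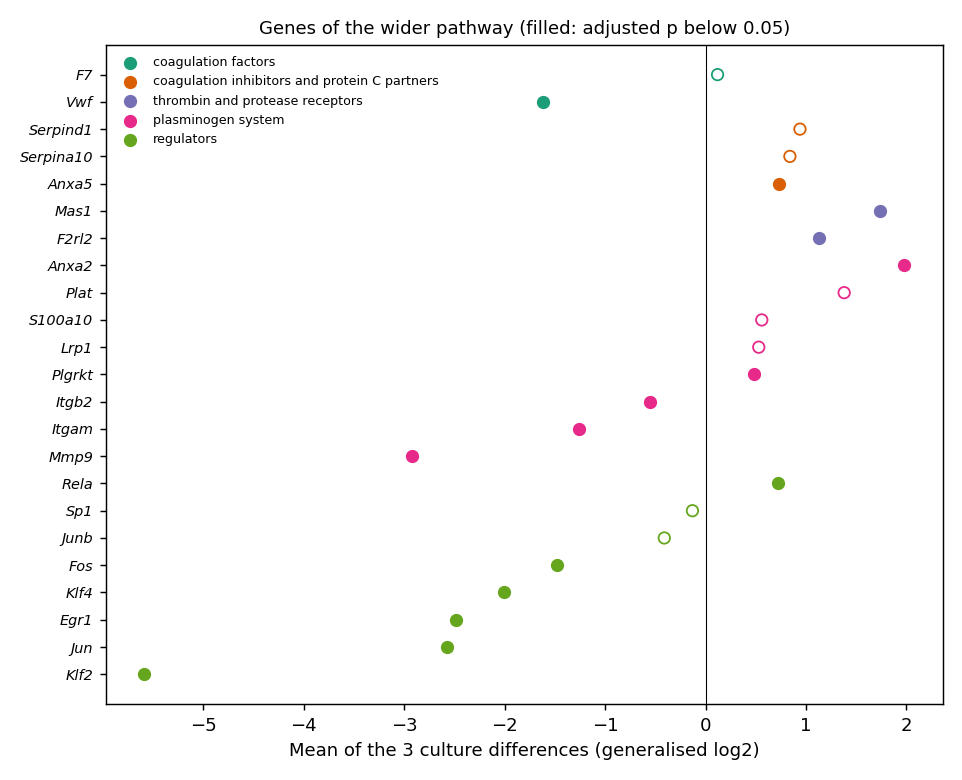
Mean over the 3 subsets of the log2 difference of cultured minus fresh intensity for each of the 23 tested genes of the 5 lists, with filled points for an adjusted p under 0.05 and open points for the others. Klf2 lies lowest at -5.59 and Anxa2 highest at 1.98. The points of Klf2, Mmp9, Vwf and Itgam rest on groups under the floor, and with values set to the floor they lie at -3.26, -1.19, -0.30 and -0.15.

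Markers of other spleen cells were read beside these values. Their sums add intensities of different probe sets, values under the floor included, so that the brightest weigh most. Such sums are a description and do not measure how much of a cell type was present. The summed level of 8 endothelial markers on the array was 635.1 to 698.1 in fresh CD8+ cells and 166.2 to 419.4 in the other groups. Vwf is among these markers, and without it the sum was 398.5 to 512.0 in fresh CD8+ cells and 163.5 to 349.1 in the others. Cdh5, Tek and Tie1 were under the floor on all arrays. Flt1, a receptor of vascular endothelial growth factor, had means of 209.7 in fresh CD8+, 22.6 in fresh CD4+ and 23.6 in fresh DN cells, at least 2.18-fold higher than in either (limma adjusted p 0.024 and 0.0322). It was above the floor on the fresh CD8+ arrays alone and passed the filter only through them. These calls were lost in 4 and 8 of 16 alternatives, with p up to 0.221 and 0.323, among them without cultured CD8+ replicate 1 and without either fresh CD4+ array. The call against DN was also lost without either fresh DN array, cultured CD8+ replicate 2 or cultured DN replicate 1. Pecam1 had means of 133.3, 81.1 and 116.7 in fresh CD4+, CD8+ and DN cells. Serpinb2 was also highest in fresh CD8+ cells, and the part of endothelial RNA in that value was not tested.

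Of 8 macrophage and monocyte markers, 7 were on the array, and none was under the floor on all arrays. Their sum was 4174.0 to 4289.5 in cultured CD8+ cells, where Procr was highest, against 2165.8 to 2599.4 in the other cultured groups, 2567.3 to 2883.0 in fresh CD8+, 2247.3 to 2998.6 in fresh DN and 4054.5 to 4379.6 in fresh CD4+ cells. Cd14, the co-receptor for bacterial lipopolysaccharide, made up 2225.7 to 2238.4 of it in cultured CD8+ cells, and without Cd14 the sum was 1948.3 to 2051.1 there and 1500.7 to 2161.7 in the other cultured groups. For the mean over the subsets limma called 1 of the 7 higher and 3 lower after culture, beside 17.0% and 22.3% of all. Cd14 rose by 2.62 ± 0.33 (limma adjusted p 0.000163), from means of 124.7, 199.2 and 121.7 to 584.0, 2232.1 and 639.8 in CD4+, CD8+ and DN cells. Adgre1, Csf1r and Lyz2 had -1.83 ± 0.44 (p 0.00766), -1.34 ± 0.24 (p 0.00137) and -1.35 ± 0.25 (p 0.0018). The part of such cells in the Procr level was not tested. Of 6 platelet markers 3 were on the array. Pf4 was under the floor on all arrays, while Gp9 was above it on 8 of 12. Their sum was 3.3 to 187.7 on fresh and 58.4 to 340.5 on cultured arrays. All 4 T cell markers were under the floor on all arrays. Of the B cell markers, Ms4a1 was above it on all 12 arrays and Cd79b on 9. The B cell sum was 497.9 to 1005.4 in fresh CD8+ cells. It was 332.4 to 516.2 in the other fresh groups and 212.7 to 642.1 in cultured ones. Of the NK cell markers, Ncr1 was under the floor on all arrays and Klrk1 was above it on 7. The NK cell sum was 38.5 to 202.8 on fresh and 120.3 to 336.6 on cultured arrays. Among 8 neutrophil markers, 5 were under the floor on all arrays, while Camp was above it on 7 and Elane on 2. The neutrophil sum was 30.3 to 281.9 on fresh and -7.3 to 484.0 on cultured arrays. The part of such cells in the members' levels was not tested.

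The genes whose pattern over the 12 arrays was closest to that of a member were named by Pearson correlation of the log2 values over 4734 genes, as a description over arrays that all share the step from fresh to cultured. Closest to Procr were Sqstm1 (r 0.991), the autophagy receptor p62, Bcl2l11 (0.986), the pro-apoptotic protein Bim, and Map2k3 (0.981), a kinase of the p38 pathway. Within the 6 fresh arrays the 3 genes had r 0.762, 0.709 and 0.90, and within the 6 cultured arrays 0.935, 0.947 and 0.509. Means were 6785.2, 10862.3 and 5790.0 for Sqstm1 and 1467.8, 4602.0 and 1758.0 for Bcl2l11 in cultured CD4+, CD8+ and DN cells. Closest to Plaur were Nfkb2 (0.969) and Nfkbia (0.949), a subunit and an inhibitor of NF-kB, and Usf2 (0.945), with r 0.96, 0.894 and 0.937 within fresh and 0.796, 0.858 and 0.799 within cultured arrays. Closest to Serpinb2 were Leprot (0.961), Map2k6 (0.952) and Anapc13 (0.934), with r 0.907, 0.898 and 0.835 within fresh arrays but 0.384, 0.443 and 0.593 within cultured arrays, on which Serpinb2 was under the floor. For the brighter F2r probe set they were Polr2c (0.939), Copz2 (0.935) and Cryl1 (0.93). Their r was 0.96, 0.988 and 0.876 within fresh and 0.959, 0.925 and 0.965 within cultured arrays. All were dim, with group means of 46.05 to 91.9 for Polr2c, 64.35 to 163.3 for Copz2 and 48.1 to 121.6 for Cryl1. Polr2c means were under the floor in every group but cultured DN. That F2r probe set read higher on replicate 1, the noisier array, in every group but cultured DN. The part of array noise in these F2r correlations was not tested.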

How the data were processed

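Intensities were deposited as Average Difference values to which the authors had applied global scaling, per the labels. The program used and its scaling target were not given in the sources used here. A value x became log2 of (x + sqrt(x² + c²)) / 2, called generalised log2 here. The offset c, 45.69, was the array median of each array's noise over 12422 probe sets (66 controls were left out). The floor was 2 times c, 91.37, and 6159 probe sets above it on at least 2 of 12 arrays were tested. The probe annotation gave 1 symbol to 10833 probe sets, several to 396 and none to 1193.

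Tests used limma 3.58.1 (R 4.3.3) with a mean for each group, eBayes with trend and robust estimation, 6 residual degrees of freedom and Benjamini-Hochberg adjustment over the 6159 probe sets. It was tested on simulated data. The number of arrays limits precision. Whether the 2 replicates of a group came from separate animals is not stated, so p-values measure the spread between these arrays, which may be technical. The main fit, which gave the p-values unless a block is named, did not pair arrays. For the block alternative, the experiment numbers 1 and 2 in the labels were taken to pair arrays across groups. The deviations of same-numbered arrays correlated over all 15 pairs of groups, at 0.106 to 0.444. In every group replicate 1 was the noisier array, and the 3 arrays with a high Gapdh ratio were all replicate 1. Whether the correlations came from shared experiments or from array quality was not tested.

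The members and the gene lists were chosen with earlier results of these data known. List genes were named by a rule: those called in any of the 10 comparisons, up to 5 per list by lowest adjusted p. F7, Plat, Junb, Rela and the marker genes given with a p were named after their values were seen. Where a gene had several probe sets, the one with the highest mean stood for it. Python 3.11.15, pandas 2.3.3, numpy 2.4.6 and matplotlib 3.10.9 prepared tables and figures.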

Additional observations from a re-analysis of the deposited data

How the results depend on the processing

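The alternatives were an offset c multiplied by 0.5 or 2, values set to the floor, a filter of 6 arrays or none, quantile normalization, the replicate block, leaving out the 3 arrays with a high Gapdh ratio, and leaving out each array in turn. Procr kept its sign throughout, with a mean culture difference of 3.70 to 3.92. The mean difference of Plaur was 1.33 with values set to the floor, and that of Serpinb2 was -2.83 with c multiplied by 0.5, -1.58 with c multiplied by 2 and -0.74 with values set to the floor. Without 1 array each, Plaur ranged from 1.70 to 2.14 and Serpinb2 from -2.41 to -2.07.

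The number of probe sets called for fresh CD8+ against CD4+ was 206 with values set to the floor, 189 with quantile normalization and 192 with the replicate block. For fresh CD8+ against DN it was 134 with values set to the floor and 161 without the 3 arrays. For cultured CD8+ against CD4+ it was 319 without the 3 arrays, and for cultured CD8+ against DN it was 129 with the block and 222 without the 3 arrays. Fresh DN against CD4+ gave 2 without the 3 arrays, and cultured DN against CD4+ gave 1 with values set to the floor and 3 without the 3 arrays. Culture gave 1786 calls in CD4+ cells and 1039 in DN cells with the block, and 969 in CD8+ cells without the 3 arrays. The block changed the call of 3 named genes: Vwf for cultured CD8+ against CD4+ (adjusted p 0.0192), F2rl2 for culture of CD4+ cells (0.0156) and Rela for culture of CD8+ cells (0.0454) were called with it.

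Without 1 array each, the counts ranged from 26 to 200 for fresh CD8+ against CD4+, 8 to 123 for fresh CD8+ against DN, 28 to 551 for cultured CD8+ against CD4+, 5 to 158 for cultured CD8+ against DN, 0 to 197 for cultured DN against CD4+, 306 to 2102 for culture of CD4+ cells, 131 to 773 of CD8+ cells and 90 to 964 of DN cells. Over all alternatives, member differences moved by less than the replicate spread in 889 of their values and by more in 61, and comparisons of named pathway genes kept their side of the threshold in 2774, lost a call in 152 and gained one in 24. Correlations with the members, under alternatives chosen after seeing the data, moved by at least 0.05 in 9 values and by less in 183. The cause of these changes was not tested. With 2 arrays a group and member signals near the floor, the sizes for Plaur, Serpinb2 and F2r are less certain than that for Procr.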

Other observations

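Coding genes next to the members on their chromosomes, 3 on each side, were read as values by a rule added after the members' values were seen. Of 42 such genes, 20 were on the array, 13 were tested, and 6 were called higher and 2 lower for the mean culture difference by limma, beside 39.3% of all tested probe sets. Eif6, an anti-association factor of the large ribosomal subunit that lies near Procr, had a log2 difference of 1.03 (adjusted p 0.00886), while Trpc4ap and Edem2, also near Procr, had 0.12 (p 0.525) and 0.25 (p 0.324). Kcnn4, a calcium-activated potassium channel near Plaur, had 1.63 (p 0.000125).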
